A study of Mus musculus with 24 samples.

Results

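Runx1, Runx2 and Runx3 encode the 3 DNA-binding subunits of core-binding factor, and Cbfb encodes the common partner subunit. These 4 genes were taken by name from 21631 protein-coding mouse genes, and each was read as its annotated span in build mm10 (RefSeq GRCm38.p6) with 2 kb on either side. The data are chromatin immunoprecipitation sequencing (ChIP-seq) of mouse leukaemia cells that carry a fusion of the nuclear pore gene NUP98. The cells received VTP50469, an inhibitor that occupies menin where MLL1, a histone methyltransferase, would dock, or the solvent DMSO alone. Of 24 libraries, 14 have a list of called regions, and the other 10 are input chromatin.

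Each of 7 pairs sets a VTP50469 list against its DMSO list. MLL1 was immunoprecipitated in 4 lines, named by their fusion: NUP98-HOXA9 (72 h, 2 µM), NUP98-HOXD13 (96 h, 2 µM), NUP98-JARID1A (96 h, 2 µM) and NUP98-NSD1 (96 h, 200 nM). Menin was immunoprecipitated in the HOXD13 and HOXA9 lines and H3K4me3, which is histone H3 with 3 methyl groups on lysine 4, in the HOXA9 line, each at 96 h and 2 µM. In both lines the titles of the MLL1 libraries carry another date-like number than those of Menin and H3K4me3. In the HOXA9 line the cell name in those titles also ends differently. Antibodies compared within a line therefore come from differently labelled sets of libraries. Every line carries a NUP98 fusion and was grown with the cytokines IL-3, IL-6 and SCF, so no group here lacks a fusion, and each line stands for 1 leukaemia as far as the labels say. NUP98-NSD1 differs from the other lines in dose as well as in fusion. The MLL1 lists of NUP98-HOXA9 differ from those of the other lines in time as well as in fusion. These cannot be told apart between lines.

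RUNX proteins bind DNA through the Runt domain at the core sequence TGTGGT, and CBFB, which does not itself touch DNA, strengthens that binding. RUNX1 is required for blood stem cells to form and is often mutated or fused in acute myeloid leukaemia, and CBFB is fused in some cases. RUNX2 is the master regulator of bone-forming cells, and RUNX3 acts in T cells and sensory neurons. The Runx genes are known to be transcribed from a distal and a proximal promoter. MLL1 (KMT2A) carries a CXXC domain that binds unmethylated CG dinucleotides, menin links it to chromatin partners, and H3K4me3 marks active promoters.

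The distal promoters of the 3 Runx genes share a pair of RUNX core sequences. This stretch is shown because it is a sequence feature that these 3 members, but not Cbfb, have in common. It is the pair ACCACA, any 2 bases, ACCACA, where ACCACA is TGTGGT read on the other strand. Each stretch below has 30 bases, 5′ to 3′ on the strand of the gene, with the cores in capitals.
Runx1: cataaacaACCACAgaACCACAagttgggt
Runx2: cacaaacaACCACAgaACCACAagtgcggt
Runx3: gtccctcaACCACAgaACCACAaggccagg
The Runx1 stretch lies at chr16:92826025-92826054 on the minus strand, where the pair begins 28 bases after the annotated start. The Runx2 stretch lies at chr17:44814583-44814612 on the minus strand, 23 bases after the start, and the Runx3 stretch at chr4:135120503-135120532 on the plus strand, where the pair begins at position -134 from the start. All 3 have the same spacer, ga. In windows from 250 bases before to 50 after a start, the pair on either strand occurred in 4 of 21020 windows of protein-coding genes (0.019%), which are these 3 and that of Olfr24, an olfactory receptor gene. A single TGTGGT on either strand, which includes the members of the pair, was in 3100 windows (14.7%). No TGTGGT was found in the windows of the second Runx1 and Runx3 starts or of Cbfb.

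The starts of the members also differ in CG content, which is shown because the called regions described next differ between the starts of one gene. The RefSeq table gives 2 starts for Runx1 and for Runx3, and 1 each for Runx2 and Cbfb. In the 300-base windows, CG occurred 2 times at the first Runx1 start and 35 times at the second, 2 times at the Runx2 start, 8 times at the first Runx3 start and 45 times at the second, and 30 times at Cbfb. The median window of all genes holds 13. The 250 bases before a start are printed 5′ to 3′ with each CG in capitals (RefSeq, GRCm38.p6).
Runx1 first start (chr16:92826075-92826324, minus strand): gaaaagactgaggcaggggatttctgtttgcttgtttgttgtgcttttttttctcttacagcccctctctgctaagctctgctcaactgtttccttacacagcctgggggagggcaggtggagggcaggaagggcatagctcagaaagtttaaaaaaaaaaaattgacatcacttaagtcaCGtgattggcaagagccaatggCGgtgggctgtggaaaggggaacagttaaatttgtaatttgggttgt
Runx1 second start (chr16:92697330-92697579, minus strand): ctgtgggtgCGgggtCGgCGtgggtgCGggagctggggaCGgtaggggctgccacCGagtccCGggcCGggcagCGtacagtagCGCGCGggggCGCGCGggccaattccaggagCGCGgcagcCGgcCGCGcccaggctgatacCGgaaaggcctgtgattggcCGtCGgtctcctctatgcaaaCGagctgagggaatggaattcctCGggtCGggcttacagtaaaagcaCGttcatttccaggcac
Runx3 first start (chr4:135120395-135120644, plus strand): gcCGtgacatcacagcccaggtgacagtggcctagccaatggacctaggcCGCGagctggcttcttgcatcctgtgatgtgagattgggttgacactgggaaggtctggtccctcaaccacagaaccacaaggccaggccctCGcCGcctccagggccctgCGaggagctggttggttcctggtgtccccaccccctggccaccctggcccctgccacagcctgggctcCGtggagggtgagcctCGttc
Runx3 second start (chr4:135152295-135152544, plus strand): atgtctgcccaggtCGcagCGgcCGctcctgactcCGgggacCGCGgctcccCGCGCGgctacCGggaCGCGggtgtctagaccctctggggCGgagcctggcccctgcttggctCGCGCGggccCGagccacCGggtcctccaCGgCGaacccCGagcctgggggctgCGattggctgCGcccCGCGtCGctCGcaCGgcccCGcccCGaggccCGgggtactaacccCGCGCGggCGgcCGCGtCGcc
Cbfb (chr8:105170424-105170673, plus strand): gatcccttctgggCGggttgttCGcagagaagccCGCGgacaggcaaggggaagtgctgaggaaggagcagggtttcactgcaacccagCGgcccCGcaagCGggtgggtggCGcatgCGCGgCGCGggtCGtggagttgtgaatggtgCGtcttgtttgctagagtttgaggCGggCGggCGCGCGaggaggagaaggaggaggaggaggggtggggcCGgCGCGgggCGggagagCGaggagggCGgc

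Peak lists give no read depth. The lists held 403 to 24950 regions, and their weakest regions had a deposited −log10 q of 2.00 to 2.07, so a gene without a region may have enrichment under that limit. The quantity used throughout is the covered length, in base pairs (bp) of the gene window inside called regions. There is 1 library per condition: no length has a replicate error, and no difference below was tested. The lists of a pair differ in length, so each member is read against all genes. After VTP50469 the MLL1-covered length of all protein-coding genes together stood at 131% of DMSO in NUP98-JARID1A cells, 76.6% in the HOXA9 line, 58.3% in the HOXD13 line and 9.4% in the NSD1 line. For Menin it was 79.0% of DMSO in NUP98-HOXD13 and 2.57% in NUP98-HOXA9. In the H3K4me3 DMSO list of NUP98-HOXA9, where 42.4% of all genes had a region, 7 of 7 haematopoietic markers (among them Ptprc, Spi1 and Kit) had a region, against 3 of 6 myeloid, 1 of 5 erythroid and megakaryocyte, 1 of 6 lymphoid and 0 of 6 stromal and epithelial markers.

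All 4 genes carried MLL1 in all 4 DMSO lists, where the share of all genes with a region was 53.0% in the HOXA9 line, 53.5% in the HOXD13 line, 48.4% in the JARID1A line and 26.1% in the NSD1 line. The NUP98-NSD1 cells treated with VTP50469 had no MLL1 region at any of the 4. In NUP98-HOXA9 and NUP98-HOXD13 each of the 4 had less MLL1-covered length after VTP50469, with Runx2 losing the largest share of the 4. The median gene with a DMSO region was itself shorter there, at 89.7% and 66.7% of DMSO. In NUP98-JARID1A, by contrast, Runx1 and Runx3 had longer coverage after VTP50469 than under DMSO. There the median gene was at 129%, with Runx1 (115%) below it and Runx3 (152%) above. A gene was counted as reduced when its length was at most 50% of DMSO. By that rule 1 of 4 members was reduced in NUP98-HOXA9 (Runx2), where 12.8% of all genes with a DMSO region were. In NUP98-HOXD13 4 of 4 were reduced against 30.4% of all genes, in NUP98-JARID1A 0 of 4 against 2.51%, and in NUP98-NSD1 4 of 4 against 94.1%. Runx1 and Runx2 had at least 4000 bp under DMSO in NUP98-HOXD13 and NUP98-HOXA9, where 82.0% and 59.7% of such genes were reduced. The NUP98-NSD1 count is close to what nearly every gene showed. No member reached 200% of its DMSO length, a level that 19.3% of all genes reached in NUP98-JARID1A, against 1.87% in the HOXA9 line, 0.156% in the HOXD13 line and 0.0708% in the NSD1 line.

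**Figure D1:**
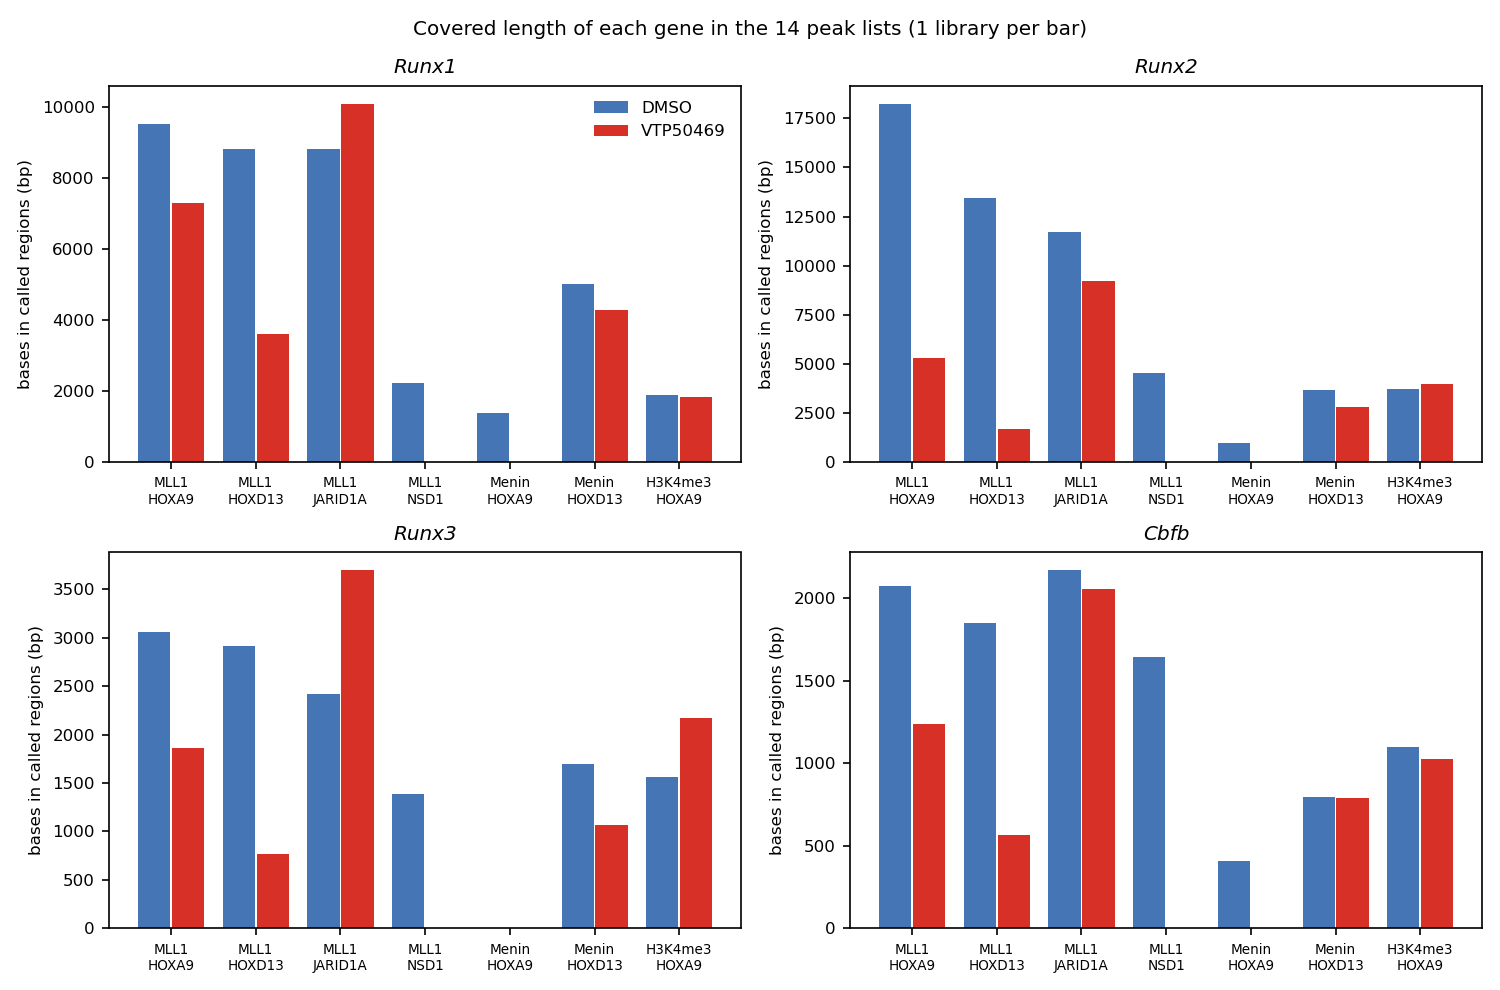
Bases in called regions (bp, vertical axis from 0, a different scale for each gene) in the 7 pairs of lists, 1 bar per library, blue for DMSO and red for VTP50469; no error bars exist because each condition has 1 library. Runx2 has the tallest MLL1 bars (18239 bp in NUP98-HOXA9 under DMSO), all 4 genes have no red bar for MLL1 in NUP98-NSD1, and red exceeds blue for MLL1 in NUP98-JARID1A at Runx1 and Runx3.

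Summed over the 4 genes, MLL1 covered 32884 bp under DMSO and 15702 bp after VTP50469 in NUP98-HOXA9, which is 47.7%. The sums were 27018 and 6592 bp in NUP98-HOXD13 (24.4%), 25104 and 25064 bp in NUP98-JARID1A (99.8%), and 9779 and 0 bp in NUP98-NSD1. In each of these pairs the members had a smaller share of their length left than all genes together. Runx2 weighs heavily in these sums, so the genes are described one by one. Counted as regions, 14 of the 36 DMSO regions in NUP98-HOXA9 shared no base with a treated region (38.9%, 95% Wilson interval 24.8 to 55.1, counting error only), against 21.5% of all regions in the list. The count was 18 of 30 in NUP98-HOXD13 (60.0%, 42.3 to 75.4) against 32.7%, 4 of 22 in NUP98-JARID1A (18.2%, 7.31 to 38.5) against 8.62%, and 12 of 12 in NUP98-NSD1 (100%, 75.8 to 100) against 88.8%. Regions of 1 gene are not independent, 22 of the 36 in NUP98-HOXA9 are in Runx2, and whether the members differ from the list was not tested. With both lists of a pair cut to equal length, 33.3% of the member regions and 19.4% of all regions were lost in NUP98-HOXA9. For NUP98-HOXD13 the shares were 36.8% and 15.7%, and for NUP98-JARID1A they lay closer together, at 27.3% and 21.4%.

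Runx1 spans chr16:92601466-92826074 on the minus strand (gene ID 12394). MLL1 covered 9514 bp of its window under DMSO in NUP98-HOXA9, 8821 bp in NUP98-HOXD13, 8797 bp in NUP98-JARID1A and 2206 bp in NUP98-NSD1. The first 3 lines lie close together and NUP98-NSD1 is far lower. After VTP50469 the lengths were 7295 bp (76.7% of DMSO), 3597 bp (40.8%), 10079 bp (115%) and 0 bp. The value for NUP98-HOXD13 was 0.531 of DMSO when both lists were cut to the same number of rows, which takes Runx1 out of the reduced genes there, and that for NUP98-JARID1A was 0.872, which turns its direction. Among genes with at least 4000 bp under DMSO the share reduced to at most 50% was 82.0% in NUP98-HOXD13, 59.7% in the HOXA9 line and 11.2% in the JARID1A line. Within that class Runx1 stood toward the retained end. Counted from the strongest reduction it was 336th of 375 genes in NUP98-HOXA9, 142nd of 189 in NUP98-HOXD13 and 271st of 312 in NUP98-JARID1A.

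The retained Runx1 coverage had a recurring layout. Merging the regions of all 14 lists gave 18 sites in Runx1. Of these, 5 carried MLL1 in 3 of the treated lists: both starts and 3 sites that lie inside the gene, centred 24.6, 110.7 and 205.0 kb from its 5′ end. How often sites over the genome do so was not counted. At the 24.6 kb site MLL1 covered 1100 bp under DMSO and 813 bp after VTP50469 in NUP98-HOXA9, 1076 and 682 bp in NUP98-HOXD13, and 638 and 1361 bp in NUP98-JARID1A. The 205.0 kb site had 890 and 770 bp, 613 and 700 bp, and 662 and 974 bp in the same order. None of these 3 internal sites was in the NUP98-NSD1 lists.

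At the first Runx1 start, the distal promoter with few CG, MLL1 covered 1589 bp under DMSO and 813 bp after VTP50469 in NUP98-HOXA9, 1384 and 680 bp in NUP98-HOXD13, and 1867 and 1735 bp in NUP98-JARID1A. NUP98-NSD1 had no region there in either list. The CG-rich second start was covered by MLL1 in all 4 DMSO lists, over 2421 bp in NUP98-HOXA9, 2921 bp in NUP98-HOXD13, 2392 bp in NUP98-JARID1A and 1371 bp in NUP98-NSD1. After VTP50469 it kept 2312 bp in NUP98-HOXA9, 996 bp in NUP98-HOXD13 and 1263 bp in NUP98-JARID1A, and had none in NUP98-NSD1. In NUP98-JARID1A, where the gene as a whole was longer, this start was therefore shorter, and 5 of the 14 treated regions had no DMSO counterpart, in a list where 43.6% of all treated regions had none. H3K4me3 marked both starts of Runx1 in NUP98-HOXA9, with 1249 bp under DMSO and 1305 bp after VTP50469 at the first, and 633 and 533 bp at the second.

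**Figure D2:**
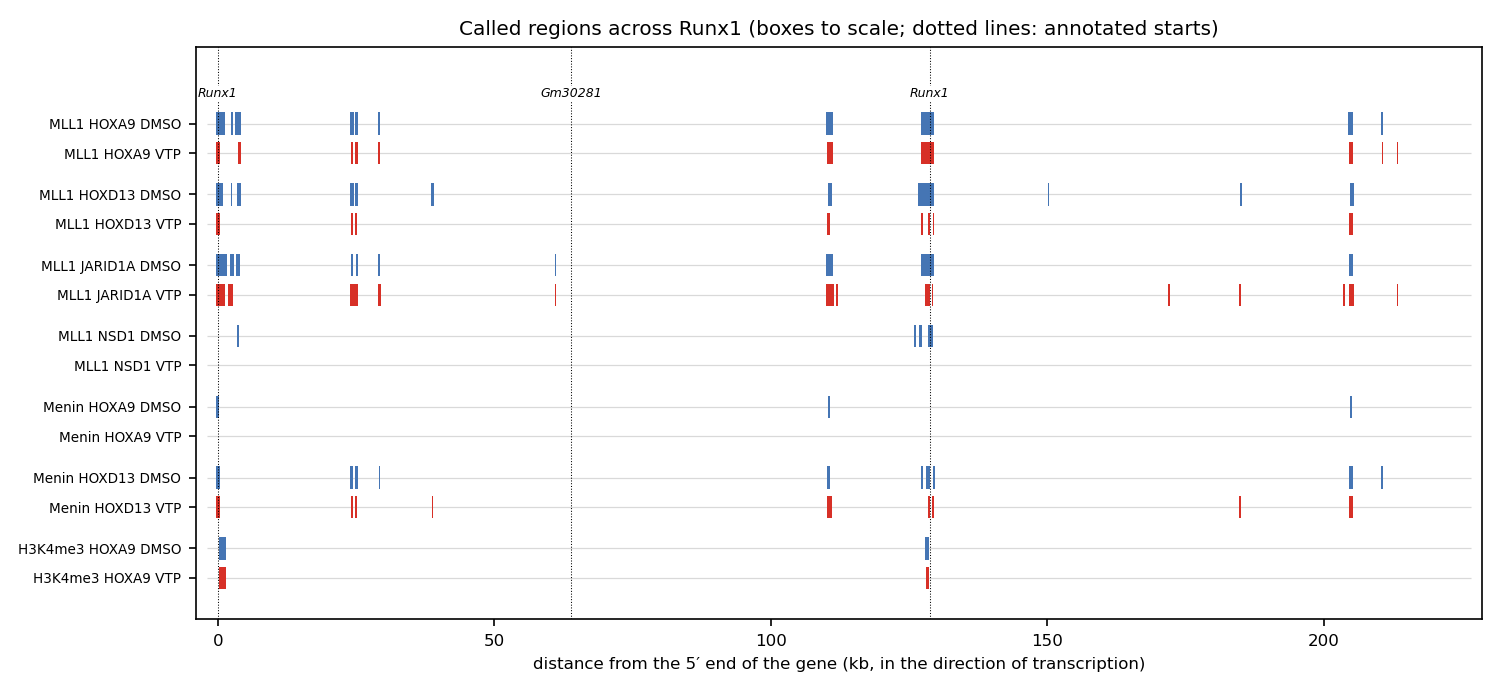
Called regions of the 14 lists along Runx1, to scale, with distance from the 5′ end in kb on the horizontal axis and 1 row per list (blue DMSO, red VTP50469, written VTP on the axis); dotted lines are annotated starts, Gm30281 being a long non-coding RNA. Regions at 24.6, 110.7 and 205.0 kb and at both Runx1 starts recur in the rows of 3 MLL1 lines, and the treated NUP98-NSD1 and treated NUP98-HOXA9 Menin rows are empty.

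Runx2 spans chr17:44495987-44814797 on the minus strand (gene ID 12393) and had the longest MLL1 coverage of the 4 genes. Under DMSO it held 18239 bp in NUP98-HOXA9, 13427 bp in NUP98-HOXD13, 11713 bp in NUP98-JARID1A and 4545 bp in NUP98-NSD1. These lengths placed it 10th, 4th, 13th and 41st of all genes with a region in those lists. After VTP50469 the lengths were 5307 bp (29.1% of DMSO), 1669 bp (12.4%), 9230 bp (78.8%) and 0 bp. The reduction in NUP98-HOXA9 and NUP98-HOXD13 was large also among long-covered genes, where Runx2 stood 74th of 375 and 23rd of 189 from the strongest reduction. In NUP98-NSD1 98.1% of the 54 genes of that class were reduced to at most 50%. Length per gene size gives another order: under DMSO MLL1 covered 5.65% of the Runx2 window in NUP98-HOXA9 and 4.98% of the Runx3 window, but in NUP98-JARID1A 3.63% of Runx2, 3.85% of Runx1, 3.95% of Runx3 and 4.23% of Cbfb.

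The MLL1 coverage of Runx2 lay mostly away from its annotated start. At that start only NUP98-HOXD13 under DMSO had a region, of 233 bp with a deposited fold enrichment of 3.16, and the treated list had none. The widest site was a domain at chr17:44730345-44738966, between 75831 and 84452 bp from the 5′ end, where the RefSeq promoter table lists no start. MLL1 covered 4390 bp of it under DMSO in NUP98-HOXA9, 4901 bp in NUP98-HOXD13, 8622 bp in NUP98-JARID1A and 3077 bp in NUP98-NSD1. That is 24.1%, 36.5%, 73.6% and 67.7% of the MLL1 length of Runx2 in those lists. After VTP50469 1205 bp were left in NUP98-HOXA9, 0 bp in NUP98-HOXD13, 5868 bp in NUP98-JARID1A and 0 bp in NUP98-NSD1.

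In NUP98-JARID1A the DMSO domain was a single region with a deposited fold of 63.5, the 7th highest of 15765 regions in that list. In NUP98-NSD1 the fold was 13.6, which ranked 212th of 7113. The same stretch carried the widest H3K4me3 of the members in NUP98-HOXA9, 3155 bp under DMSO and 3399 bp after VTP50469, at a place where MLL1 went from 4390 to 1205 bp. The MLL1 lists are of 72 h and the H3K4me3 lists of 96 h. By width the DMSO H3K4me3 region was 41st of 9443. Whether the domain is the proximal Runx2 promoter could not be read from the tables used here.

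Supt3, which encodes a subunit of a transcriptional coactivator complex, starts inside Runx2 on the opposite strand, 37631 bp from the 5′ end of Runx2. The site at this start had 1161 and 1028 bp of MLL1 under DMSO and VTP50469 in NUP98-HOXA9, 921 and 803 bp in NUP98-HOXD13, 964 and 936 bp in NUP98-JARID1A, and 841 and 0 bp in NUP98-NSD1. It was among the most evenly covered Runx2 sites in the first 3 lines, and its signal cannot be assigned to Runx2 rather than Supt3. In NUP98-HOXD13 803 of the 1669 bp left in Runx2 lay there, and without the bases near that start the Runx2 ratio was 0.0692 in place of 0.124. The other bases left in that line, 866 bp against 835 bp under DMSO, all lay at an internal site centred at 160.7 kb. That site had 2023 and 1034 bp in NUP98-HOXA9, 549 and 995 bp in NUP98-JARID1A, and 296 and 0 bp in NUP98-NSD1.

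The lines also differed in where called MLL1 regions lay along Runx2. A cluster of 8 sites centred between 104.7 and 114.5 kb held 5754 bp under DMSO in NUP98-HOXA9 and 1006 bp after VTP50469, and 5 of the 8 had no treated region. The same cluster held 996 bp in NUP98-HOXD13, 0 bp in NUP98-JARID1A and 331 bp in NUP98-NSD1 under DMSO. Close to the 5′ end, a region of 3188 bp centred at 6.8 kb was in the DMSO list of NUP98-HOXD13 and in no other MLL1 list, with 278 bp of Menin, and neither antibody had it after VTP50469. In all, 13 of 22 DMSO regions of Runx2 were absent after VTP50469 in NUP98-HOXA9, 11 of 14 in NUP98-HOXD13, 3 of 8 in NUP98-JARID1A and 4 of 4 in NUP98-NSD1. The whole lists lost 21.5%, 32.7%, 8.62% and 88.8% in the same order.

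**Figure D3:**
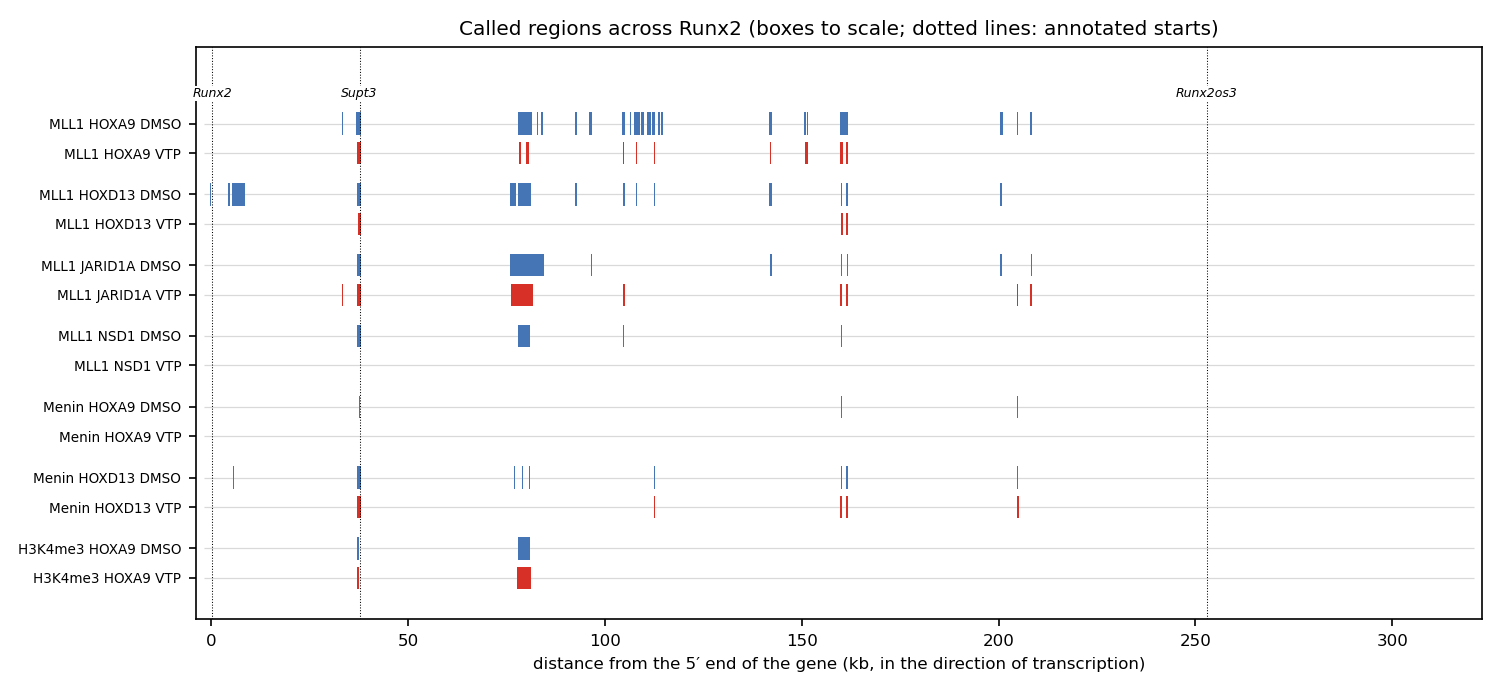
Called regions of the 14 lists along Runx2, to scale, with distance from the 5′ end in kb and 1 row per list (blue DMSO, red VTP50469); dotted lines are the annotated starts of Runx2, Supt3 and the long non-coding RNA Runx2os3. The wide domain near 80.1 kb is in all 4 MLL1 DMSO rows, in the treated rows of NUP98-HOXA9 and NUP98-JARID1A, and in both H3K4me3 rows, while the Supt3 start and the 160.7 kb site recur in the treated MLL1 rows of 3 lines.

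Runx3 spans chr4:135120645-135177990 on the plus strand (gene ID 12399). MLL1 covered 3054 bp under DMSO in NUP98-HOXA9, 2918 bp in NUP98-HOXD13, 2424 bp in NUP98-JARID1A and 1385 bp in NUP98-NSD1. After VTP50469 it covered 1860 bp (60.9%), 763 bp (26.1%), 3695 bp (152%) and 0 bp. Runx3 thus had the largest relative gain of the 4 genes in NUP98-JARID1A, where the median gene was at 129%, and the ratio was 1.28 with lists of equal length.

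At the first Runx3 start, which also lies near the start of the antisense long non-coding RNA Gm16225, MLL1 covered 974 and 641 bp under DMSO and VTP50469 in NUP98-HOXA9, 795 and 427 bp in NUP98-HOXD13, and 318 and 793 bp in NUP98-JARID1A. NUP98-NSD1 had no region at that start itself. The CG-rich second start had more coverage than the first in each DMSO list: 1679 bp in NUP98-HOXA9, 1773 bp in NUP98-HOXD13, 2106 bp in NUP98-JARID1A and 952 bp in NUP98-NSD1. After VTP50469 its lengths were 890, 336, 2313 and 0 bp in the same order. H3K4me3 in NUP98-HOXA9 was at the second start alone, with 1558 bp under DMSO and 2172 bp after VTP50469, the longest relative extension of the mark among the members (139%). The remaining sites were an internal one at 8.4 kb, with 401 and 329 bp in NUP98-HOXA9 and 350 and 0 bp in NUP98-HOXD13 but 0 and 353 bp in NUP98-JARID1A, and 2 sites that each appeared in a single list.

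Cbfb spans chr8:105170674-105217989 on the plus strand (gene ID 12400) and had a single site, at its start, in 12 of the 14 lists. MLL1 covered 2077 bp under DMSO and 1240 bp after VTP50469 in NUP98-HOXA9 (59.7%), 1852 and 563 bp in NUP98-HOXD13 (30.4%), 2170 and 2060 bp in NUP98-JARID1A (94.9%), and 1643 and 0 bp in NUP98-NSD1. The DMSO lengths are near each other in all 4 lines, unlike those of the Runx genes, and the treated lengths differ. The treated NUP98-HOXD13 region ran from 374 bp before to 188 bp after the start, where the DMSO regions had reached to 1663 bp after it. In NUP98-HOXA9 a treated region on the start was joined by one of 517 bp further downstream, and in NUP98-JARID1A the treated region still reached 1635 bp past the start. The NUP98-HOXA9 ratio was 0.348 when rows under a −log10 q of 5 were dropped, as one of the 2 treated regions had a −log10 q of 2.5, and 0.461 with the gene span alone, and both would count Cbfb as reduced there. With the gene span alone the NUP98-HOXD13 ratios of Runx3 and Cbfb were 0.151 and 0.132.

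**Figure D4:**
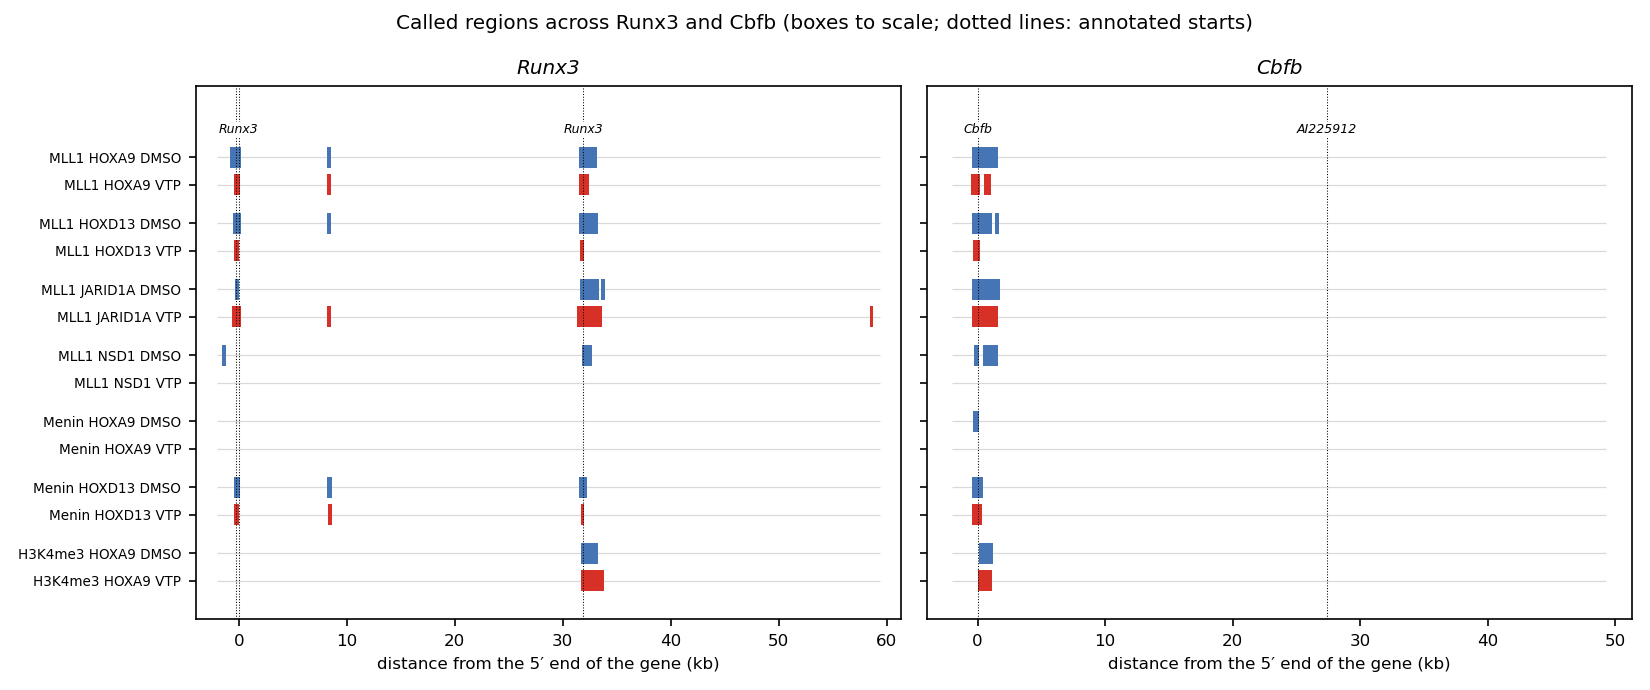
Called regions of the 14 lists along Runx3 (left) and Cbfb (right), to scale, with distance from the 5′ end in kb and 1 row per list (blue DMSO, red VTP50469); dotted lines are annotated starts, the unlabelled one being Gm16225 before Runx3. In Runx3 the regions gather at the first start, at 8.4 kb and at the second start, where alone H3K4me3 is found, and in Cbfb every region overlaps 1 site at the start.

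Across the 4 genes there were 46 sites. Of the 41 with MLL1 in any DMSO list, 7 were in all 4 lines (17.1%), against 19.9% of 26288 such sites over the genome, and 18 were in a single line (43.9%), against 34.2%. No region in any treated MLL1 list was left at 15 (36.6%, of which 11 in Runx2), against 20.5%. The 7 shared sites were 2 in Runx1, 3 in Runx2, 1 in Runx3 and that of Cbfb. Of these 7, 5 were also in the treated lists of NUP98-HOXA9, NUP98-HOXD13 and NUP98-JARID1A. The share of shared sites that do so over the genome was not counted, so whether 5 of 7 is unusual is not known. Sites within 1 kb of an annotated start, that of Supt3 included, had 69.9% of their MLL1 length left in NUP98-HOXA9 and other sites 38.2%, and in NUP98-HOXD13 38.5% and 16.3%. That order rests on Runx2: without its sites the values were 67.5% and 76.2% in NUP98-HOXA9, while NUP98-HOXD13 had 34.4% and 39.5%. In NUP98-JARID1A they were 92.7% and 104%, and 92.2% and 169% without Runx2. The wide Runx2 domain, where no start is listed, was counted with the other sites. Its MLL1 length went from 4390 to 1205 bp in NUP98-HOXA9 and from 4901 to 0 bp in NUP98-HOXD13. Whether it holds a start is not known, so the contrast of the 2 classes over all 4 genes depends on that annotation. Regions that shared a base with a treated region had a higher deposited fold under DMSO than those that did not. The medians were 10.5 and 4.96 in NUP98-HOXA9, 12.8 and 5.68 in NUP98-HOXD13, and 10.0 and 6.15 in NUP98-JARID1A, where the second group has 4 regions. Weak regions are the ones nearest the limit of the lists, and the part of that limit in the losses was not tested.

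**Figure D5:**
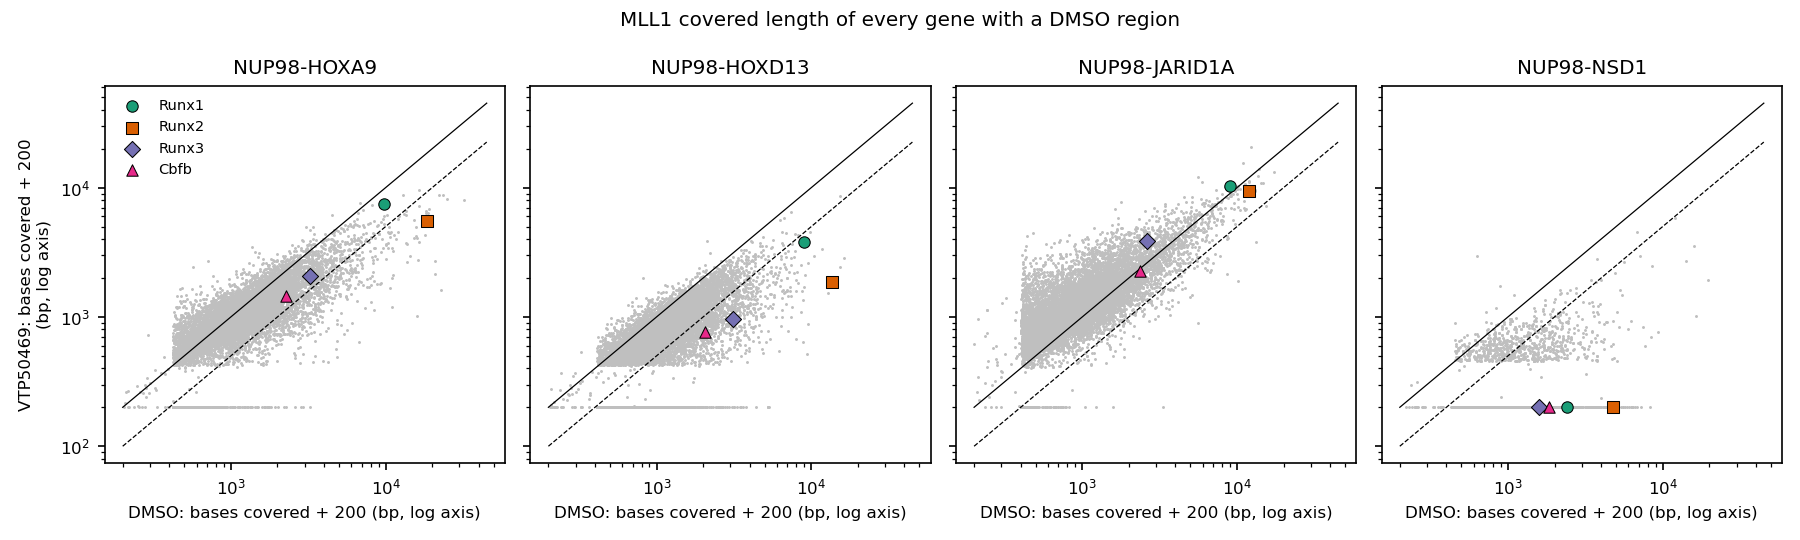
MLL1-covered length of each gene with a DMSO region, DMSO on the horizontal and VTP50469 on the vertical axis (bp plus 200, both log axes), in the 4 lines; grey points are all genes, the solid line marks equal length and the dashed line 50% of DMSO. Runx2 lies below the dashed line in NUP98-HOXA9, all 4 members lie below it in NUP98-HOXD13, they lie near or above the solid line in NUP98-JARID1A, and all 4 are at 0 bp after VTP50469 in NUP98-NSD1.

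Menin, the protein that VTP50469 binds, covered less of each member than MLL1 did under DMSO in both lines tested. The whole DMSO lists had the same order, with 3.88 Mb of Menin (96 h) and 15.48 Mb of MLL1 (72 h) in NUP98-HOXA9. In NUP98-HOXD13 they had 10.63 and 12.97 Mb. Under DMSO in NUP98-HOXA9 Menin covered 1361 bp of Runx1, 950 bp of Runx2, 0 bp of Runx3 and 411 bp of Cbfb. After VTP50469 none of the 7 regions was left (100%, Wilson interval 64.6 to 100), in a list where 95.9% of all regions were absent. All 3 members with a region were therefore reduced, as were 98.7% of all genes, and 0.0% of genes reached 200%. In NUP98-HOXD13 Menin covered 5002 bp of Runx1 under DMSO and 4266 bp after VTP50469, 3675 and 2794 bp of Runx2, 1693 and 1063 bp of Runx3, and 795 and 789 bp of Cbfb. None of the 4 was reduced to 50% (13.5% of all genes were) and none reached 200%, against 0.294% of all genes. Runx3 was at 0.441 of DMSO, and so reduced, when rows under a −log10 q of 5 were dropped. The summed Menin length was 79.8% of DMSO, and 7 of 23 regions were absent (30.4%, 15.6 to 50.9) against 20.0% of all regions. With lists of equal length the order was the other way, 11.1% of the member regions against 13.1% of all regions. The Runx2 value turned direction with lists of equal length, where it was 1.13 of DMSO.

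In NUP98-HOXD13 the treated cells had more Menin than MLL1 length at each member, 8912 bp against 6592 bp in sum, where under DMSO MLL1 had been the longer, 27018 bp against 11165 bp. The whole lists changed order in the same way, from 12.97 Mb of MLL1 and 10.63 Mb of Menin to 7.61 and 8.55 Mb. Lengths of 2 antibodies depend on each antibody's list, so only the position of the regions is compared further. Under DMSO, 17 of the 30 MLL1 regions at the members overlapped a Menin region (56.7%), against 77.2% of all MLL1 regions in that list. After VTP50469 13 of 14 did (92.9%), against 89.8%. In the wide Runx2 domain Menin had 929 bp under DMSO and none after VTP50469, as did MLL1. In NUP98-HOXA9 under DMSO all 7 Menin regions overlapped MLL1, as did 96.9% of all Menin regions. Of the 36 MLL1 regions 7 overlapped Menin (19.4%), against 38.2% of all. The MLL1 lists of that line are of 72 h and the Menin lists of 96 h.

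H3K4me3 in NUP98-HOXA9 differed little between the lists at Runx1, Runx2 and Cbfb. At Runx3 it stood at 139% of DMSO, where the median gene was at 104%. The mark covered 1882 and 1838 bp of Runx1 under DMSO and VTP50469, 3714 and 3967 bp of Runx2, 1558 and 2172 bp of Runx3, and 1099 and 1029 bp of Cbfb. None was at or under 50% of DMSO (5.68% of all genes were) or at 200% (3.41%). The 6 DMSO regions were all still called (0 of 6 absent, Wilson interval 0 to 39.0), where 9.6% of all regions were absent. The sum was 109% of DMSO, and that of all genes 108%. All 6 overlapped an MLL1 region of the same line, as did 87.6% of all H3K4me3 regions.

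RUNX cofactors, 35 genes for proteins known to bind or modify RUNX factors, had MLL1 under DMSO in 29 genes of the HOXA9 line, 31 of the HOXD13 line, 28 of the JARID1A line and 13 of the NSD1 line. At most 50% of the length was left in 6 of 29, 16 of 31, 0 of 28 and 13 of 13, beside 12.8%, 30.4%, 2.51% and 94.1% of all genes. In NUP98-JARID1A 8 of the 28 were at 200% or more, beside 19.3% of all genes. The median gene of the list had 86.3%, 48.0%, 124% and 0% left, beside 89.7%, 66.7%, 129% and 0% for all genes. The 4 genes named next were picked for the longest MLL1 length summed over the DMSO lists, so they do not stand for the list. Fli1, an ETS factor that acts with RUNX1, had 9133 and 2977 bp under DMSO and VTP50469 in NUP98-HOXA9, 4277 and 1078 bp in NUP98-HOXD13, and 6982 and 7251 bp in NUP98-JARID1A. Hipk2, a kinase, had 2543 and 650 bp, 2358 and 0 bp, and 5695 and 4531 bp. Tle3, a corepressor, had 3807 and 2576 bp, 3705 and 1884 bp, and 4887 and 7501 bp. Ncor1, another corepressor, had 2683 and 1743 bp, 2863 and 819 bp, and 4525 and 3246 bp.

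The list of haematopoietic targets of RUNX factors has 26 genes and overlaps the other lists. Spi1, Myb and Kit are also haematopoietic markers here, and Mpo, Elane, Csf1r and Itgam are myeloid markers. Itga2b and Pf4 are erythroid and megakaryocyte markers, and Spi1 and Cebpa are also in the cofactor list. The targets had MLL1 in 19, 20, 18 and 9 genes under DMSO in the HOXA9, HOXD13, JARID1A and NSD1 lines. Of these, 7, 9, 2 and 9 were at or under 50% after VTP50469, and 6 of the 18 in NUP98-JARID1A were at 200% or more, to be read against the all-gene shares just given. Median lengths were 94.7%, 52.3%, 156% and 0% of DMSO, beside the same all-gene medians as above. The targets named here were again picked for the longest MLL1 length under DMSO and do not stand for the list. Myb, a transcription factor of blood progenitors, had 5789 and 2094 bp in NUP98-HOXA9, 3764 and 732 bp in NUP98-HOXD13, 7682 and 6584 bp in NUP98-JARID1A, and 3476 and 0 bp in NUP98-NSD1. Gfi1, a transcriptional repressor, had 4796 and 2218 bp, 3771 and 379 bp, 5183 and 5091 bp, and 4160 and 0 bp. Bcl2, which blocks apoptosis, had 3324 and 2101 bp, 2603 and 1322 bp, 5721 and 3759 bp, and 1074 and 0 bp. Ccnd3, a D-type cyclin, had 3936 and 3729 bp, 3958 and 2568 bp, 3600 and 6503 bp, and 355 and 0 bp. The bone genes known as RUNX2 targets or partners had a DMSO region of MLL1 at 2 of 11 in the HOXA9 line and in the HOXD13 line, 1 of 11 in the JARID1A line and 0 of 11 in the NSD1 line, beside 53.0%, 53.5%, 48.4% and 26.1% of all genes. Spp1, which encodes osteopontin, was among them with 400 and 513 bp in NUP98-HOXA9.

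The genes whose lengths over the 14 lists were most like those of each member were ranked by the mean absolute difference of log2(length + 200 bp). For Runx2 they were Cdk6 (0.22), Arid1b (0.33) and Zfp608 (0.37), where the median of 13486 genes was 2.39. Cdk6, a kinase of the cell cycle, had 15593 and 4004 bp of MLL1 in NUP98-HOXA9, and 9270 and 2398 bp in NUP98-HOXD13. For Runx1 they were Arhgap26 (0.29), Atxn1 (0.30) and Ptpre (0.35), with a median of 2.26 over 13487 genes. Runx3 was nearest to Slc38a1 (0.20), Ap3m2 (0.22) and Dpagt1 (0.22), and Cbfb to Jmy, Herpud2 and Xpo6 (0.17 each), against medians of 1.21 and 0.88.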

How the data were processed

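The files are peak lists, 1 per library. MACS2, STAR 2.7.5a, bedtools, SAMtools, Picard 2.9.4 and bcl2fastq 2.20.0.422 appear in the submitters' processing notes with build mm10; for their settings and the input behind each list, nothing is given in the sources used here. Each row of a deposited list has a score (not used here), a fold enrichment over background (a ratio) and −log10 values of p and q, all made by the authors. Fold was used to describe and rank regions within a list.

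The covered length is the number of bases of a gene's RefSeq span plus 2 kb on either side that lie in called regions. A DMSO region is lost when it shares no base with a region of the treated list. Windows were counted over 21631 protein-coding genes with Python 3.11.15 and pandas 2.3.3, on code tested on simulated data. Labels of line, antibody, agent and time set the groups; the NUP98-NSD1 labels give 200 nM although the treatment protocol names 2 µM. Named besides the members were the 3 genes most like each and the 4 of each list (cofactors, targets, bone genes) with the longest MLL1 length under DMSO, of which some are given. The members, lists and alternatives were chosen with earlier results of these data known. Alternatives were lists of equal length, a −log10 q of at least 5, the span alone or plus 10 kb, a 50% overlap, and 2 chosen after seeing the data: Runx2 without the start of Supt3, and sites near starts without those of Runx2. Sequences are from RefSeq promoter windows (GRCm38.p6); sequences of called regions were not used here. The 10 input libraries were not analysed here.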

Additional observations from a re-analysis of the deposited data

Results flagged for a closer look

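MLL1-covered length after VTP50469 was above DMSO in NUP98-JARID1A and below it in the other 3 lines at 2 members. Runx1 stood at 1.15 times its DMSO length in NUP98-JARID1A, and at 0.767, 0.408 and 0 in NUP98-HOXA9, NUP98-HOXD13 and NUP98-NSD1. Runx3 stood at 1.52 times in NUP98-JARID1A, and at 0.609, 0.261 and 0 in the others. With 1 library per condition the difference between lines was not tested. In NUP98-JARID1A all genes together stood at 131% and the median gene at 129% of DMSO, so Runx1 lay below the median gene and Runx3 above it. The lists of that line hold 15765 regions under DMSO and 24950 after VTP50469, and with both cut to equal length the values were 0.872 for Runx1 and 1.28 for Runx3.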

How the results depend on the processing

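No ratio of the summed length moved by more than 1.5 times under any alternative. The ratios of 0, for MLL1 in NUP98-NSD1 and Menin in NUP98-HOXA9, could move only with the span plus 10 kb. Those ratios are part of the counts here but are no measure of stability under the other alternatives. The share of regions lost was counted as moved by another rule, when it left the 95% Wilson interval of the main value. That share moved in 3 cases: to 55.6% for MLL1 in NUP98-HOXA9 when treated regions had to cover 50% of a region (38.9% with 1 base), and with lists of equal length to 36.8% for MLL1 in NUP98-HOXD13 (60.0%) and 11.1% for Menin in NUP98-HOXD13 (30.4%). Of 109 ratios of single genes, those of 0 included, 4 moved by more than 1.5 times: Cbfb in NUP98-HOXA9 (0.348 at a −log10 q of at least 5, from 0.597), Runx3 and Cbfb in NUP98-HOXD13 (0.151 and 0.132 with the span alone, from 0.261 and 0.304), and Runx2 in NUP98-HOXD13 (0.0692 without the Supt3 start, from 0.124). Of those that moved less, Cbfb in NUP98-HOXA9 (0.461 with the span alone) and Runx3 for Menin in NUP98-HOXD13 (0.441 at a −log10 q of at least 5) came under 50%, and with lists of equal length Runx1 in NUP98-HOXD13 left it (0.531). The cause was not tested. Lists of equal length left no member region for Menin in NUP98-HOXA9 and 1, of 3077 bp in Runx2, for MLL1 in NUP98-NSD1, so they say nothing of the other members there. Read depth is unknown, and a library of lower depth or enrichment yields fewer called regions. No paired analysis was possible because each condition has 1 library.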
